A study of Mus musculus with 36 samples.

Results

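The deposited list of CLOCK:BMAL1 (CLK:BMAL1) binding sites in mouse liver includes 717 peaks, 22.3% of the list, that carry the location label for intergenic sites more than 10 kb away, beside 2500 peaks of the other classes. The members were chosen by that label alone, with no measured value. H2A.Z signal at them was deposited as 1 mean profile per library over all 717 windows of 3 kb, so no value of a single site was used here. In every library the profile had a shoulder on either side of a dip near the bound site. In livers of Bmal1-/- mice this profile was lower and its dip was shallower relative to the shoulders. In wild-type livers this relative depth of the dip changed over the day.

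CLOCK and BMAL1 bind DNA as a dimer at E-box motifs and drive the transcription of clock genes and of many genes of liver metabolism. H2A.Z is a variant of histone H2A that is placed in nucleosomes at promoters and enhancers, often in those that border a site where a transcription factor binds. Micrococcal nuclease cuts the DNA between nucleosomes, so that a protected fragment marks where a nucleosome sat. At an active distal enhancer the usual picture is a pair of positioned nucleosomes with an accessible stretch between them.

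The signal table covered 30 libraries of liver from adult mice aged 3 to 6 months, of strain C57BL/6 per the labels, held in a light:dark cycle of 12 h each. Wild-type mice (WT) gave 24 libraries in 4 series, numbered 11, 12, 25 and 26, with 1 library of each series at zeitgeber time (ZT, hours after lights on) 2, 6, 10, 14, 18 and 22. Mice labelled BM, Bmal1-/- in the series' design text, lack BMAL1 and gave 6 libraries, 1 at each time, all of series 5. BM series 8 was not analysed here. By the labels' source names the samples form a first set (WT series 11 and 12 and BM series 5) and a second set (WT series 25 and 26). Genotypes can therefore be compared within a set only in the first. Nothing in the labels says which libraries come from separate animals or pools of animals, so p-values measure the spread between these libraries, which may be technical. The values hold no gene-level measurement, so neither the knockout label nor the tissue could be checked against a marker, and no 2 libraries held identical profiles. The scale of the signal is the authors' and read depth is unknown, so levels compared between libraries rest on that scaling. In whole liver, fewer cells with H2A.Z at these sites and less H2A.Z per cell cannot be told apart.

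In WT the mean profile rose from 11.4 signal units at -1490 bp to 33.4 at -210 bp, fell to 22.1 at -20 bp, rose again to 33.9 at 170 bp and ended at 11.6 at 1490 bp. In BM the same landmarks stood at 9.27, 20.1 (at -190 bp), 15.8, 20.6 and 9.41. The highest values on the left and right lay 376 bp ± 19.3 apart in WT (SD, n = 24) and 368 bp ± 30.6 apart in BM (SD, n = 6). Their midpoint lay at -19.6 bp ± 9.43 in WT and -22.5 bp ± 8.22 in BM, and the lowest value between them at -25.0 bp ± 12.2 and -20.0 bp ± 18.97. The whole pattern thus sat slightly left of the middle position in both genotypes. Which base the authors aligned their positions to is not given in the sources used here. Positions are printed on the assumption of a step of 10 bp.

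**Figure D1:**
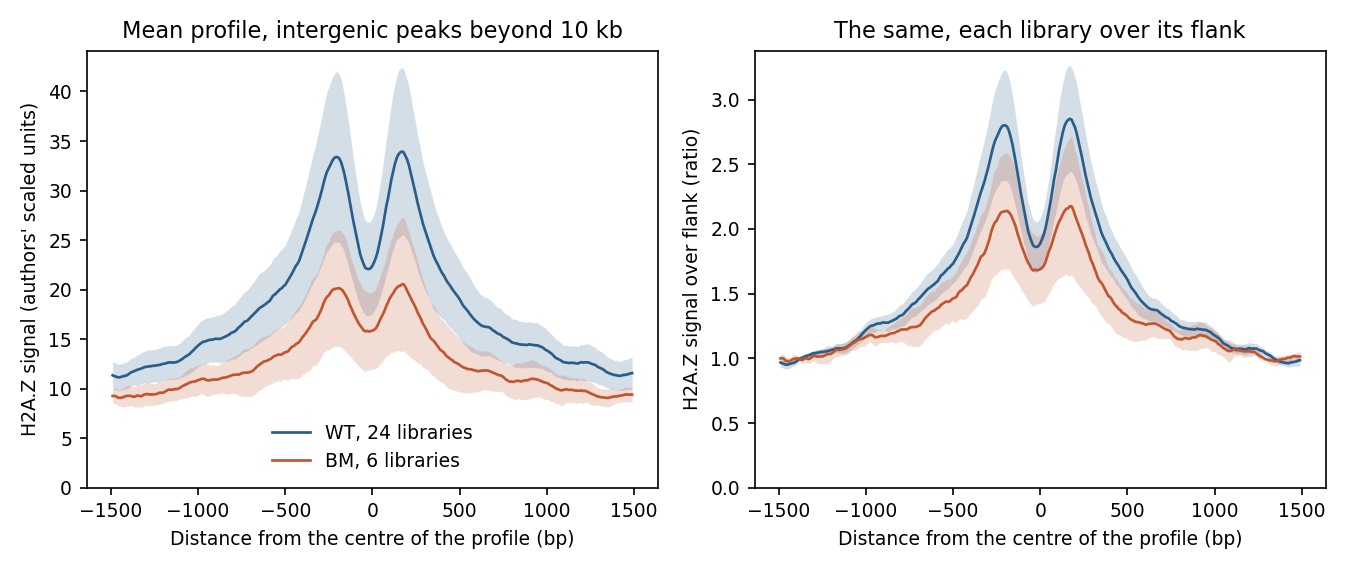
Mean H2A.Z profile over the 717 intergenic peaks beyond 10 kb, in WT (24 libraries) and BM (6 libraries), with the SD over libraries as a band. The left panel shows the deposited signal against distance from the middle of the profile in bp, and the right panel shows the same after dividing each library by its own flank. The WT shoulders reach 33.4 and 33.9 and the BM shoulders 20.1 and 20.6, on either side of a dip near -20 bp.

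The raised region was not even around the middle position, a measure that includes the shift of the whole pattern to the left. Measured from the middle position to where the signal fell to the midpoint between shoulder and flank, it reached 440 bp ± 26.5 to the left and 371 bp ± 16.4 to the right in WT (SD, n = 24). In BM it reached 420 bp ± 27.6 to the left and 350 bp ± 30.98 to the right (SD, n = 6). At peaks over transcription start sites (TSS) these distances were 608 bp ± 19.9 and 615 bp ± 22.1 in WT, so that the raised region there was 1224 bp ± 34.5 wide against 810 bp ± 32.4 at the distal peaks. At gene body peaks, where the left side also reached further, they were 419 bp ± 16.4 and 375 bp ± 18.4 in WT, with a width of 794 bp ± 26.5 (SD, n = 24), close to the distal values. These differences between classes were not tested. The shoulders themselves were close to even in height. Their asymmetry, the log2 of right over left, was 0.02 ± 0.04 in WT, with a range from -0.11 to 0.08, and -0.01 ± 0.06 in BM, with a range from -0.10 to 0.07. The flanks, the outermost 25 positions on each side, were even too, at 11.7 on the left and 11.7 on the right in WT, and 9.28 on both sides in BM.

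H2A.Z was lower in BM at every part of the distal profile. The mean signal over the window in BM was 15.6, 11.2, 10.5, 15.0, 14.2 and 9.76 at ZT2, 6, 10, 14, 18 and 22, against a WT range of 11.3 to 24.0 with a median of 18.5. At each of the 6 times the BM library lay below all 4 WT libraries of that time, in window signal, flank, shoulder and centre. The BM libraries of ZT2, ZT14 and ZT18 nevertheless stood above the lowest WT library, series 26 at ZT22.

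The window signal differed by -0.53 on the log2 scale (SE 0.12, exact permutation of the genotype label within time, two-sided, adjusted p = 0.000256 over 6 measures). Within the first set the difference was -0.36 (SE 0.07, exact permutation, adjusted p = 0.00206). WT libraries of the second set were the higher ones, with a mean window signal of 20.6 ± 3.38 (SD, n = 12) against 16.2 ± 1.99 in the first set (SD, n = 12). The flank, which lies 1250 to 1490 bp from the middle, was 11.7 ± 1.51 in WT (SD, n = 24) and 9.28 ± 0.881 in BM (SD, n = 6), a log2 difference of -0.33 (SE 0.08, exact permutation, adjusted p = 0.000256). In the first set this was -0.22 (SE 0.04, exact permutation, adjusted p = 0.00206). With every library divided by its own flank, the window difference was -0.20 (SE 0.05, exact permutation, adjusted p = 0.000576), so that part of the difference in level lay in the flank as well. With 1 mean per series as the unit, 4 WT means against 1 BM mean, no p below 0.20 is possible in an exact permutation, and the differences in window signal and in flank had that p.

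Position by position, limma on log2 signal called every position of the distal profile lower in BM (100%), against 95.1% over the 1196 positions of the 4 deposited peak sets. Neighbouring positions share reads and are not independent, and the distal set is one of those 4. The difference was smallest at the edges, at -0.27, and largest at 200 bp, at -0.76, while at -20 bp in the dip it was -0.49. With each library divided by its flank, 70.9% of the positions were called (background 75.8% of the 1196), and 67.6% were called lower in BM (background 74.8%). Most of these formed 1 unbroken stretch from -990 to 890 bp, with the largest difference again at 200 bp, -0.42, and -0.15 at -20 bp. Another 10 positions (3.34%) were called higher in BM, against a background of 1%, and all of them lay inside the flank that sets the scale. Within the first set 53.8% of the positions were called at equal flank. The share over the 1196 positions was not computed for that setting.

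**Figure D2:**
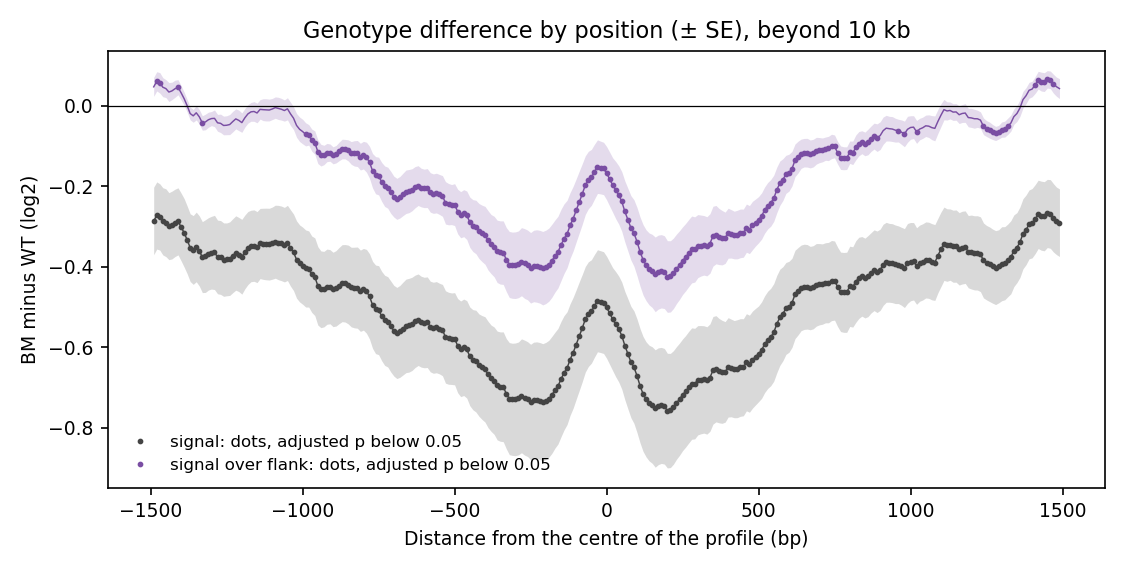
BM minus WT difference in log2 H2A.Z signal at each position of the distal profile (limma estimate, SE as a band), for the deposited signal and for signal over flank. Dots mark positions with an adjusted p below 0.05. Both curves are lowest at the shoulders, near -0.76 and -0.42 at 200 bp, and rise towards 0 at the dip and at the edges.

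The height of the shoulders over the flank does not depend on a factor that multiplies a whole library. A constant added to a library's signal would still change this ratio, and such a difference between libraries was not tested. This enrichment, the mean at 150 to 230 bp on both sides divided by the flank, was 2.76 ± 0.396 in WT (SD, n = 24) and 2.11 ± 0.470 in BM (SD, n = 6). At ZT2 it was 2.82, 2.85, 3.38 and 2.83 in WT series 11, 12, 25 and 26 and 2.56 in BM. At ZT6 the WT values were 2.73, 2.91, 3.40 and 3.20 and the BM value was 2.02. In both of these times BM lay below all WT libraries.

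At ZT10 the WT values of enrichment were 2.23, 2.78, 3.22 and 3.09 and BM had 1.62. The WT values at ZT14 were 2.79, 2.63, 2.90 and 2.73, with BM close below at 2.55. At ZT18 they were 2.45, 2.41, 3.02 and 2.72, and BM at 2.43 fell between series 12 and series 11. ZT18 was thus the one time at which the genotypes overlapped.

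At ZT22 the WT values of enrichment were 2.29, 2.05, 2.95 and 1.82 and BM had 1.51. WT series 25 was the highest WT library at each of the 6 times. The BM libraries fell into higher values at ZT2, ZT14 and ZT18 and lower ones at ZT6, ZT10 and ZT22. This split was not particular to the distal peaks. At TSS the same BM libraries had 4.41, 4.14 and 3.79 at ZT2, ZT14 and ZT18, and 3.69, 2.81 and 2.35 at ZT6, ZT10 and ZT22. Gene bodies and intergenic peaks within 10 kb showed the same split.

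Enrichment in BM differed from WT by -0.40 on the log2 scale (SE 0.09, exact permutation within time, adjusted p = 0.000256), and by -0.31 in the first set (SE 0.08, exact permutation, adjusted p = 0.00412). Without ZT10 and ZT22, the times of the BM libraries with the lowest enrichment, the difference was -0.26 (exact permutation, adjusted p = 0.0048). That comparison was chosen after the values were seen.

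The dip was shallower in BM. Centre fill expresses the height of the centre over the flank as a share of the height of the shoulder over the flank, and is 0 where the dip reaches the flank and 1 where there is no dip. It was 0.521 ± 0.0669 in WT (SD, n = 24) and 0.647 ± 0.0860 in BM (SD, n = 6).

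At ZT2 centre fill was 0.428, 0.523, 0.501 and 0.521 in WT series 11, 12, 25 and 26, and 0.621 in BM. The WT values at ZT6 were 0.444, 0.449, 0.467 and 0.471, against 0.550 in BM. At ZT10 WT had 0.400, 0.433, 0.508 and 0.500 and BM had 0.679. BM stood above all WT libraries at these daytime points, and the 4 WT series lay closest together at ZT6.

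At ZT14 the WT values of centre fill were 0.556, 0.554, 0.587 and 0.570, against 0.648 in BM. The ZT18 values were 0.544, 0.660, 0.541 and 0.642 in WT and 0.587 in BM, which thus lay among them. At ZT22 WT had 0.616, 0.537, 0.503 and 0.545, and BM had 0.796, the highest of all 30 libraries. BM exceeded all 4 WT libraries at 5 of the 6 times.

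Centre fill was higher by 0.126 in BM (SE 0.0252, exact permutation within time, adjusted p = 0.000384). In the first set the difference was 0.135 (SE 0.0329, exact permutation, adjusted p = 0.00412). The BM library of ZT22 had both the lowest enrichment and the highest centre fill of the 30 libraries. With log2 enrichment as a covariate the difference was 0.1004 (SE 0.0336, exact permutation, adjusted p = 0.00048). Without ZT10 and ZT22 it was 0.0730 (SE 0.0240, exact permutation, adjusted p = 0.0096).

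**Figure D3:**
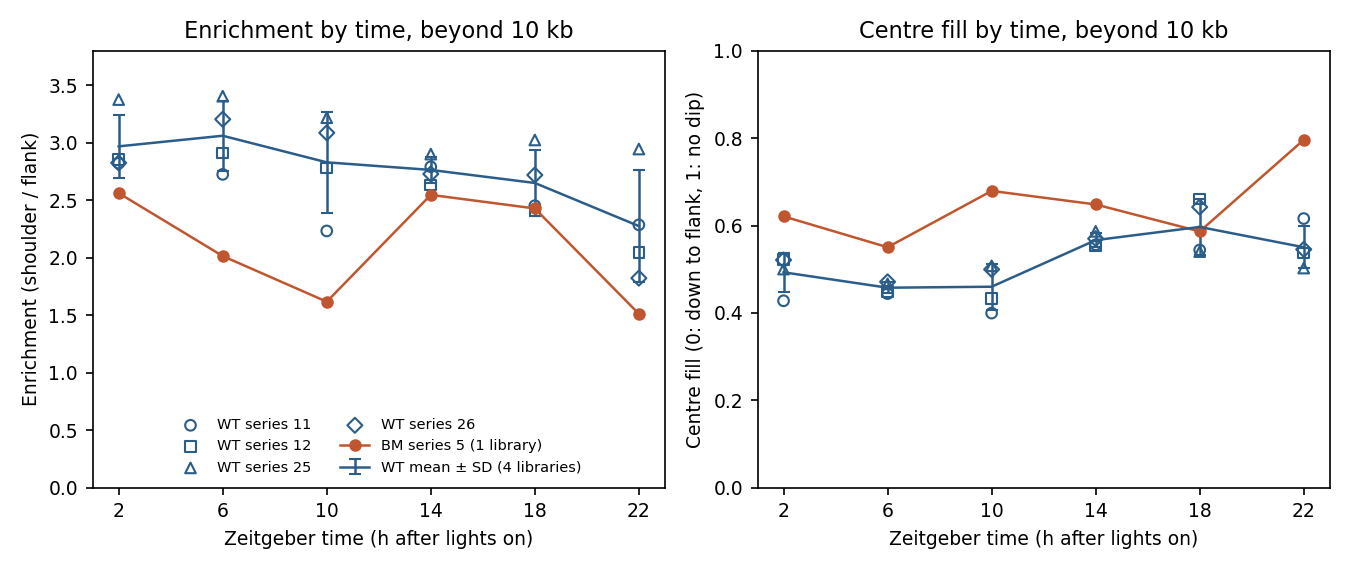
Enrichment (left) and centre fill (right) of the distal profile against zeitgeber time in h. Open symbols are the 4 WT series, the blue line is their mean with SD, and filled circles are the BM library of each time. BM enrichment lies below all WT libraries except at ZT18, and BM centre fill lies above all WT libraries except at ZT18. WT centre fill is lowest at ZT6 and ZT10 and highest at ZT18.

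Neither the asymmetry nor the spacing of the shoulders passed the test between genotypes. Shoulder asymmetry differed by -0.03 on the log2 scale (SE 0.02, exact permutation within time, adjusted p = 0.168). It passed without series 25, at -0.04 (exact permutation, adjusted p = 0.0478), and without ZT2, at -0.05 (exact permutation, adjusted p = 0.0407). Spacing differed by -7.50 bp (SE 10.3, exact permutation, adjusted p = 0.476). BM spacing was 370, 400, 320, 400, 350 and 370 bp at ZT2 to ZT22, against a WT range of 340 to 430 bp, so that only the ZT10 library lay outside it. Leaving out 1 time at a time moved the spacing difference between -13.5 and 3.0 bp, and smoothing each profile over 5 positions gave -20.4 bp (exact permutation, adjusted p = 0.0511). The raised region was 770 bp ± 44.3 wide in BM (SD, n = 6) against 810 bp ± 32.4 in WT, and was narrower than in all 4 WT libraries at 4 of 6 times, a width that was not tested.

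In WT the depth of the dip, relative to the shoulders, changed over the day. Mean centre fill was 0.493 ± 0.0446 at ZT2, 0.458 ± 0.0132 at ZT6, 0.460 ± 0.0524 at ZT10, 0.567 ± 0.0153 at ZT14, 0.597 ± 0.0634 at ZT18 and 0.550 ± 0.0475 at ZT22 (SD, n = 4 each). By this ratio the dip was deepest in the light phase and shallowest in the dark phase. A cosinor of period 24 h had an amplitude of 0.0738 (SE 0.0122, 100000 permutations of time, adjusted p = 0.00012 over 6 measures) and its maximum at ZT18.3. Series 11 had its lowest value at ZT10 and its highest at ZT22. In series 12 the extremes fell at ZT10 and ZT18, in series 25 at ZT6 and ZT14, and in series 26 at ZT6 and ZT18. Centre fill can move through the centre or through the shoulders. From ZT6 to ZT18 enrichment changed by -0.27, -0.50, -0.38 and -0.48 in series 11, 12, 25 and 26. The deposited centre signal changed by 1.65, 1.49, -0.96 and -2.29 units in the same order. Which of them the change in centre fill came from was not tested.

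Both sets showed the daily change in centre fill. In the first set the amplitude was 0.0948 (SE 0.0187, permutation test, adjusted p = 0.0281) with a maximum at ZT18.9. In the second set it was 0.0571 (SE 0.0128, permutation test, adjusted p = 0.0187) with a maximum at ZT17.1. With log2 enrichment as a covariate the amplitude was 0.0805 (SE 0.0140, permutation test, adjusted p = 0.00012).

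Levels and heights did not pass the test for time of day in WT, which had no term for series (a series block is treated at the end). Mean enrichment was 2.97 ± 0.272, 3.06 ± 0.302, 2.83 ± 0.438, 2.76 ± 0.112, 2.65 ± 0.285 and 2.28 ± 0.485 at ZT2 to ZT22 (SD, n = 4 each). Its amplitude was 0.15 on the log2 scale, with a maximum at ZT7.65 (SE 0.06, permutation test, p = 0.0431, adjusted p = 0.129). Within the sets it was 0.12 in the first and 0.19 in the second (permutation test, adjusted p = 0.521 and 0.275). Without ZT10 the amplitude was 0.20 and passed (permutation test, adjusted p = 0.039), as did 0.21 without ZT18 (permutation test, adjusted p = 0.0495).

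The amplitude of the window signal in WT was 0.14 on the log2 scale (SE 0.08, permutation test, adjusted p = 0.521), with 0.05 in the first set and 0.23 in the second (permutation test, adjusted p = 0.849 and 0.122), and that of the flank was 0.07 (SE 0.05, permutation test, adjusted p = 0.656). Without WT series 26 at ZT22 the amplitudes were 0.09 for the window and 0.04 for the flank, and without the whole of series 26 they were 0.06 and 0.01. Without ZT22 they were 0.04 and 0.01, so that both were smaller without that time or library, and none passed. Shoulder asymmetry had an amplitude of 0.01 on the log2 scale (permutation test, adjusted p = 0.711) and spacing 3.63 bp (permutation test, adjusted p = 0.849). Among the positions limma called 0 by time of day in the deposited signal, against a background of 0%, and none had an unadjusted p under 0.05. That last share was 30.1% without series 11, 13.04% without series 25, and 0% without series 12 or 26. At equal flank limma also called 0 (background 0%), with 38.5% of the positions at an unadjusted p under 0.05. Leaving out series 11, 12, 25 or 26 gave 36.8%, 7.69%, 46.8% and 7.69%, leaving out WT series 26 at ZT22 gave 23.4%, and the first set alone gave 4.01%, so that this share differs with the series included. All of these unadjusted shares are of the distal positions, and the share over the 1196 positions was not computed for them. The largest amplitude at equal flank was 0.17 on the log2 scale at -220 bp, on the left shoulder (limma, adjusted p = 0.106), while at -20 bp it was 0.04.

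In BM, with 1 library per time, the amplitude of centre fill was 0.0444 (SE 0.0587, exact permutation over 720 orders, p = 0.85), and that of log2 enrichment was 0.08 (SE 0.25, exact permutation, p = 1). Single libraries moved both values: leaving out 1 time gave from 0.0262 (without ZT6) to 0.104 (without ZT18) for centre fill, and from 0.04 (without ZT18) to 0.33 (without ZT22) for log2 enrichment, which was also 0.31 without ZT2 and 0.23 without ZT10. None of these passed the exact permutation test. The test of the difference in rhythm between genotypes did not pass, at 0.0431 for centre fill, 0.22 for log2 enrichment and 0.20 for log2 window signal (exact permutation within time, adjusted p = 0.693 for each). A daily change of the distal dip was thus called in WT and not in BM, and a difference between the genotypes in this respect was not shown.

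Among the classes of CLK:BMAL1 peaks, distal peaks took a middle position in level and had a comparatively filled dip. The other deposited classes are gene bodies (1623 peaks) and TSS (583 peaks). Intergenic peaks within 10 kb (9.14% of the list) were solved by subtraction from the other sets and share their errors. In WT the window signal beyond 10 kb was 0.670 times that at TSS, lower in 24 of 24 libraries, and 1.37 times that at gene bodies, higher in 24 of 24. Against intergenic peaks within 10 kb it was 0.980 times, with 6 of 24 libraries higher. All 3 contrasts passed (two-sided sign permutation over libraries, adjusted p from 1.29e-05 to 0.000934 over 9 contrasts).

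Enrichment in WT separated the classes in another order. Distal peaks at 2.76 ± 0.396 lay below TSS at 4.36 ± 0.587, and above gene bodies at 2.50 ± 0.404 and intergenic peaks within 10 kb at 2.14 ± 0.292 (SD, n = 24 each). Each of these orders held in 24 of 24 libraries (sign permutation, adjusted p = 1.29e-05 for each). In the first set alone the 3 window and 3 enrichment contrasts passed too (sign permutation, adjusted p from 0.000411 to 0.00129). The flank of the intergenic peaks within 10 kb was the higher one, at 14.1 ± 1.97 against 11.7 ± 1.51 beyond 10 kb. The flanks were 11.6 ± 1.40 at TSS and 9.26 ± 1.13 at gene bodies.

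Centre fill in WT was higher beyond 10 kb than in each other class. It exceeded TSS by 0.0536 (23 of 24 libraries higher) and intergenic peaks within 10 kb by 0.115 (24 of 24), each with an adjusted p of 1.29e-05 by sign permutation. Over gene bodies the excess was 0.0276 (20 of 24 libraries, sign permutation, adjusted p = 0.00094). In the first set alone it was 0.0172 and did not pass (sign permutation, adjusted p = 0.132).

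**Figure D4:**
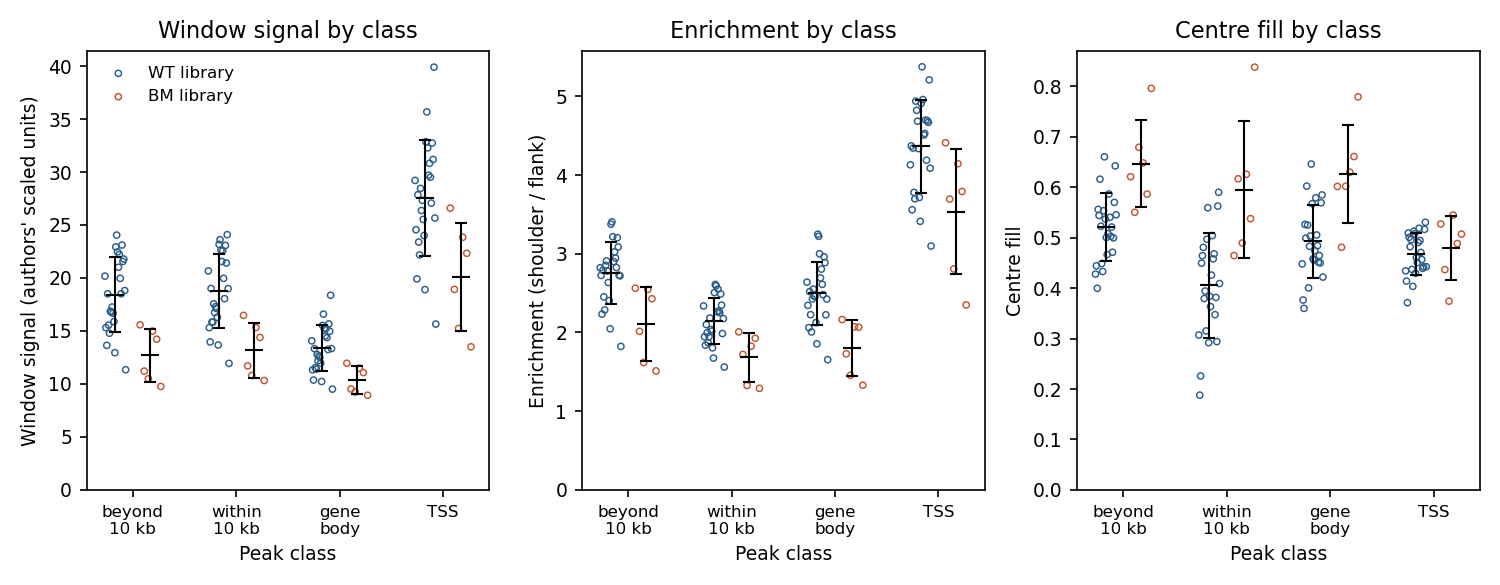
Window signal, enrichment and centre fill in the 4 classes of CLK:BMAL1 peaks. Each circle is a library (blue WT, 24; orange BM, 6), and bars give the mean and SD. Distal peaks lie between TSS and gene bodies in window signal, and their WT centre fill of 0.521 ± 0.0669 is the highest of the 4 class means.

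The rise of centre fill in BM was larger beyond 10 kb than at TSS. At TSS it was 0.467 ± 0.0417 in WT (SD, n = 24) and 0.480 ± 0.0638 in BM (SD, n = 6), and the genotype difference beyond 10 kb exceeded that at TSS by 0.114 (SE 0.0229, exact permutation within time, adjusted p = 0.00317). In the first set this was 0.113 (SE 0.0294, exact permutation, adjusted p = 0.00941). Gene bodies rose from 0.493 ± 0.0721 to 0.626 ± 0.0969, which differed from the distal rise by -0.0064 (SE 0.0198, exact permutation, adjusted p = 0.733). Intergenic peaks within 10 kb rose from 0.406 ± 0.104 to 0.595 ± 0.136, with a contrast of -0.0634 (SE 0.0307, exact permutation, adjusted p = 0.115).

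Against gene bodies, the distal peaks differed in how far their level and their enrichment fell in BM, in opposite directions. The fall of the window signal was larger beyond 10 kb by 0.17 on the log2 scale (contrast -0.17, SE 0.04, exact permutation within time, adjusted p = 0.00317), and by 0.15 in the first set (contrast -0.15, exact permutation, adjusted p = 0.00617). The fall of enrichment was smaller there, with a contrast of 0.07 (SE 0.03, exact permutation, adjusted p = 0.00941). The enrichment contrast did not pass in the first set, at 0.06 (exact permutation, adjusted p = 0.0741), or without series 25, also at 0.06 (exact permutation, adjusted p = 0.0615). Against TSS neither the window contrast of -0.06 (exact permutation, adjusted p = 0.202) nor the enrichment contrast of -0.08 (exact permutation, adjusted p = 0.153) passed. Against intergenic peaks within 10 kb the window contrast was -0.02 (exact permutation, adjusted p = 0.202). The enrichment contrast there was -0.05 (exact permutation, adjusted p = 0.229), so neither passed.

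The daily change of the dip was also set against the other classes. The difference in centre fill between distal peaks and TSS changed over the day in WT with an amplitude of 0.0375 (SE 0.00904, permutation test, adjusted p = 0.00399 over 3 contrasts). Without series 12 this was 0.0283 and did not pass (permutation test, adjusted p = 0.132), nor did the 0.0495 of the first set (permutation test, adjusted p = 0.0908). Against gene bodies the amplitude was 0.0053 (SE 0.0109, permutation test, adjusted p = 0.895), and against intergenic peaks within 10 kb it was 0.0354 (SE 0.0171, permutation test, adjusted p = 0.212).

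The distal peaks themselves resembled the rest of the list in width. Their median width, end minus start, was 309 bp with a range from 130 to 689 bp, and its quartiles were 0.259 and 0.379 kb. The median over the whole list was also 309 bp. The list numbers its peaks from 1, and the sources used here do not give what this rank is based on. Width fell along the list, with medians for distal peaks of 0.370, 0.329, 0.289 and 0.259 kb in 4 successive equal parts of it. Spearman's rho between width and rank was -0.52 over the 717 distal peaks and -0.52 over the whole list, a description of peaks from 1 list.

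Distal peaks were somewhat thinner at the top of the list. They made up 17 of the first 100 peaks, 96 (19.2%) of the first 500, 19.9% of the first 1000 and 24.1% of the last 1000. TSS peaks went the other way, from 20.2% of the first 1000 to 15.6% of the last 1000. The median rank was 1661 for distal peaks against 1507 for TSS and 1627 for gene body peaks. Peaks are members of a single list and not replicates, so these shares were not tested.

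All 20 chromosomes with a listed peak held distal ones. The distal share ran from 15.0% on chromosome 7 (34 distal peaks) and 15.4% on chromosome 19 (22 distal peaks) to 30.2% on chromosome 18 (26 of 86) and 33.8% on chromosome 13 (44 of 130). The X chromosome, with 3 distal peaks among its 10, and chromosome 8, with 28.7%, followed. In numbers, chromosomes 8, 11 and 5 held the most, with 56, 54 and 53.

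**Figure D5:**
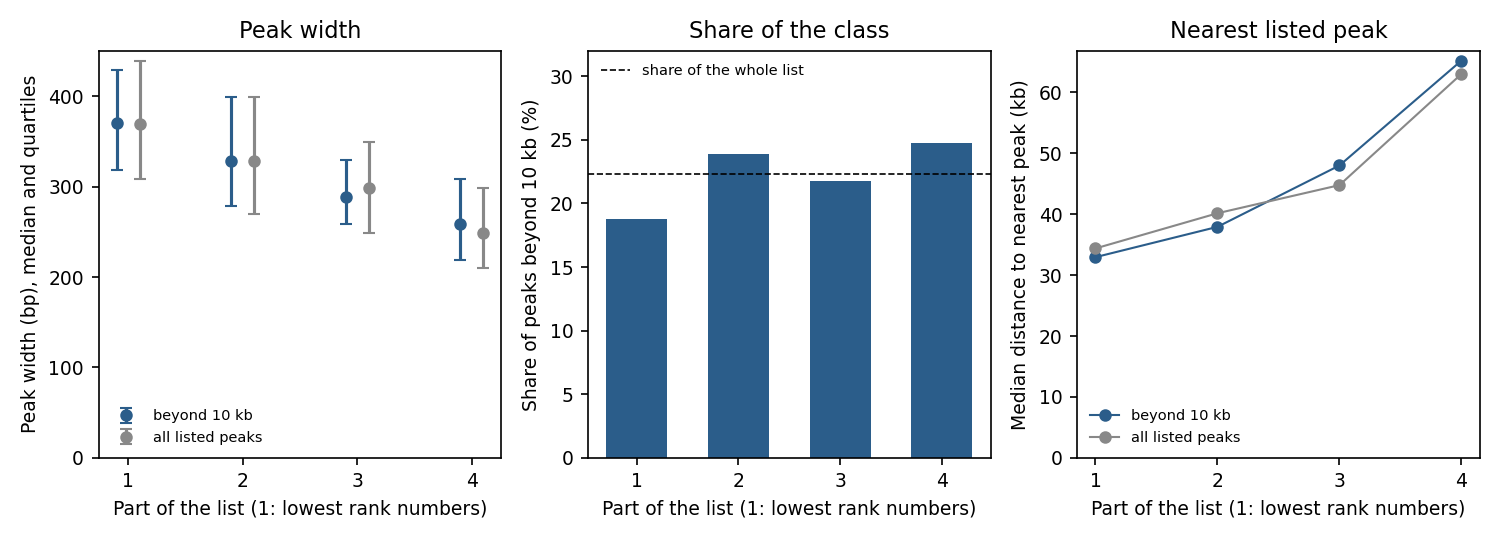
Distal peaks along the deposited list, in 4 equal parts by rank number: peak width in bp (median with quartiles), distal share of each part in % (dashed line: 22.3% of the whole list), and median distance in kb to the nearest listed peak. Distal peaks follow the whole list in median width, from 0.370 to 0.259 kb, and in distance, from 32.95 to 65.2 kb, and make up 18.8% of the first part and 24.7% of the last.

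The nearest neighbour of a distal peak was most often another distal peak. The median distance between centres was 48.4 kb to the nearest listed peak of any class (lower quartile 9.09 kb) and 130 kb to the nearest other distal peak. The nearest listed peak was itself distal for 393 of 717 (54.8%), in a list with 22.3% distal peaks. Within 10 kb another listed peak was found for 26.1% of distal peaks, against 30.2% over the list, and within 50 kb for 50.6%, against 52.04%. Another distal peak lay within 10 kb for 25.1%, against 24.2% of all listed peaks with a neighbour of their own class. The class label itself depends on position, so neighbouring peaks share it and this nearness was not tested.

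Gaps of at most 10 kb joined 180 distal peaks into 77 chains, of which 59 were pairs and 18 had 3 or more members. The windows of 16.9% of distal peaks overlapped another listed window, against 19.6% over the list. Those of 16.6% overlapped a window of another distal peak, against 16.8% of all listed peaks with a window of their own class. The 717 windows of 3 kb therefore cover 1995 kb of distinct sequence out of 2151 kb (92.7%), and the mean profile counts the shared stretches more than once. The peaks of 39 entries (5.44%) overlapped another distal peak, which leaves 697 separate loci. Over the whole list 3.98% of the peaks overlapped another listed peak.

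The distal peaks of lowest rank number, in mm9 coordinates as the list gives them, begin with number 14 at chr6:94949091-94949570, which is 479 bp wide and 714 kb from its nearest listed peak, in a gene body. Number 25 at chr17:29533711-29534090 is 379 bp wide and has another distal peak, number 518, 1.5 kb away. Number 31 at chr11:90279131-90279740 is 609 bp wide, with number 3142 centred 0.195 kb away. Both thus belong to close groups, unlike number 14.

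Number 37 at chr5:136150721-136151030 is 309 bp wide and lies 32.95 kb from a gene body peak. Number 40 at chr13:44401501-44402070 is 569 bp wide and lies 4.25 kb from distal peak 2378. The widest distal peak, number 240 at chr15:83986281-83986970, spans 689 bp and has number 1072 centred 0.125 kb away. Number 240 thus overlaps its neighbour, unlike number 37.

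The narrowest distal peak, number 2972 at chr3:101321591-101321721, spans 130 bp and lies 287.8 kb from the nearest listed peak. The closest pair, numbers 1136 and 1878, lies on chromosome 4 with centres 0.040 kb apart. Number 1878 (chr4:149172791-149173011) falls wholly inside number 1136 (chr4:149172751-149173131), so both entries stand for 1 locus. The most isolated distal peak, number 1545 at chr14:106340501-106340870, lies 11383 kb from the nearest listed peak.

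The longest chains at this gap had 6 members, and 2 chains reached that length. The one that holds the lower rank number lies on chromosome 1 and runs from 193268131 to 193270650, beginning with number 479. Its members are from 230 to 529 bp wide, and the highest rank number among them is 2656. All 6 lie within the length of 1 window, and their windows all share the stretch from 193269006 to 193269896. No gene was assigned to a peak, since no annotation of mm9 was used here.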

How the data were processed

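H2A.Z nucleosomes were immunoprecipitated from micrococcal-nuclease-digested, crosslinked liver nuclei and sequenced, per the labels' protocols. CASAVA 1.7, Bowtie and build mm9 are named in the submitters' processing notes. The deposited signal (coverage), averaged by the authors over each peak set at 299 positions, was used as given; row names carry a mark for removed duplicates. The sources used here do not give its scaling, the peak caller or the Bowtie version. Other deposited values were the authors' peak and window positions.

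Flank, shoulder and centre were means over the outermost 25 positions per side, 150 to 230 bp, and within 30 bp. Genotypes were compared by exact permutation within time (15625 ways, smallest p 6.4e-05), or 729 ways in the first set (smallest p 0.00137). WT cosinors and class contrasts used 100000 permutations (smallest p 1e-05), and BM cosinors all 720 orders (smallest p 0.0167). Positions were tested with limma 3.58.1 in R 4.3.3, with Benjamini-Hochberg adjustment over 1196 positions. Adjustment covered 6 measures per family, 2 BM rhythms, 3 rhythm differences, 9 contrasts in WT, 9 between genotypes and 3 over time. For a permutation test in an alternative setting, such as the first set alone, only the p of that result was exchanged. The other p-values of its family stayed those of the main setting. Python 3.11.15 was used otherwise. The main permutation tests, the limma fits and the joining of peaks into chains were tested on simulated data. Alternatives left out series, times or sets, changed the flank, centre and scale, or used the series number as a block. Named peaks were the 5 of lowest rank, the widest, narrowest, closest pair, longest chain and most isolated, without chromosome 18. The members, measures and lists were chosen with earlier results of these data known. No sequence was printed, as no mm9 genome was used here. Row labels give 3216 peaks for the whole set, against 3217 listed.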

Additional observations from a re-analysis of the deposited data

Results flagged for a closer look

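Among 36 groups of 4 WT libraries (6 measures at 6 times) 3 held a library far from the other 3, where chance flags about 1 in 20 groups. At ZT2 the log2 enrichment of the distal profile in series 25 was 1.76, against 1.497 to 1.51 in the other series. At ZT6 the shoulder spacing in series 12 was 370 bp where the others all had 380 bp, a gap of 1 position step of 10 bp. At ZT22 the spacing in series 12 was 430 bp against 360 to 370 bp.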

How the results depend on the processing

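Of 369 alternative values for 43 results, 348 kept their direction and their side of the threshold (or, for counts, stayed within 1.5 times). With means of each series as the unit, the genotype differences in log2 window signal (-0.53), log2 flank (-0.33), log2 enrichment (-0.40) and centre fill (0.126) all had p = 0.20 by exact permutation, the smallest possible. The first sample set alone gave 0.0495 for the amplitude of the distal minus TSS centre fill, 0.0619 for the genotype contrast in log2 enrichment against gene bodies, and 0.0172 for the WT contrast in centre fill against gene bodies, and none of these passed. Leaving out a series gave ranges of -0.04 to -0.02 for the genotype difference in shoulder asymmetry, 0.0283 to 0.0450 for the amplitude against TSS and 0.0598 to 0.0816 for the enrichment contrast against gene bodies. Leaving out a time gave -0.047 to -0.0164 for asymmetry and 0.0912 to 0.212 for the WT amplitude of log2 enrichment. Among differences that passed under no setting, the sign turned for the genotype difference in shoulder spacing, to 6.25 bp without ZT10 and ZT22 and from -13.5 to 3.0 bp (without ZT10) leaving out a time, and for the genotype contrast in centre fill against gene bodies, to 0.0040 in the first set and from -0.0139 to 0.0015 (without series 26) leaving out a series. The share of distal peaks with a close neighbour went from 16.9% (overlapping windows) to 26.1% at 10 kb and 50.6% at 50 kb. The cause of these changes was not tested. With the series number as a replicate block, the WT amplitude of log2 enrichment of 0.15 passed (permutation test, adjusted p = 0.0256). With the block limma called 37.8% of the distal positions by time of day at equal flank, against 0% of them without it. The share over the 1196 positions was not computed with the block. No other result tested with the block changed its call. The labels do not say what the libraries of a series share beyond the number. Deviations from the time means had r from -0.81 to 0.92 over 60 same-series pairs, with a median of 0.418 and 42 pairs over 0.1. Of 24 libraries, 9 were closest to their own series. Without WT series 26 at ZT22, chosen after the data were seen, no call changed. With depth unknown, no limit from counting error can be given, and the 6 BM libraries of 1 series limit every genotype comparison.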
